A study of Homo sapiens with 10 samples.

Results

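The 10 genes described here are the FOS family (FOS, FOSB, FOSL1, FOSL2), the JUN family (JUN, JUNB, JUND) and ATF3, EGR1 and IER2. They were taken by gene symbol from the 23426 symbols measured, and all 10 passed the filter on low values, which 16071 genes passed. RNA was sequenced from MDA-MB-468 cells, an established basal breast cancer line, and from ZR75-1 cells, an established luminal breast cancer line. Each line was kept for 6 h with DMSO, the solvent (n = 2), or with 1 µM PKC412 (midostaurin), an inhibitor of many kinases (n = 3). The labels name no other agent and no introduced genetic change. Each subtype is represented by 1 line, so a difference between the lines is a difference between these lines and not between subtypes. Levels are FPKM, in which a fragment count is divided by the length of the transcript and the size of the library, so they can be set side by side between genes.

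AP-1 is a pair of leucine zipper proteins, usually 1 of the FOS family with 1 of the JUN family, that binds DNA at a short palindromic element (the TPA response element, TRE) and, with ATF proteins, at the cAMP response element (CRE). FOS, JUN, EGR1 and IER2 are classical immediate-early genes, transcribed within minutes of growth factor, stress or calcium signals through kinase cascades that end at factors already present in the cell. FOSL1 (FRA-1) and FOSL2 (FRA-2) lack the strong activation domain of FOS and FOSB and are longer lived, and FOSL1 is known for its high level in basal-like breast cancer cells. ATF3 is a stress-induced partner of the JUN proteins, and EGR1 is a zinc finger factor.

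The promoter windows of 9 of the 10 genes were read from RefSeq (GRCh38.p14; the FPKM came from hg19), each running from 250 bases before the transcription start to 50 bases after it, and FOSL1 was not matched. Both strands were searched for TGACG (the CRE core), TGACGTCA (the full CRE, which contains the core on both strands), TGANTCA (the TRE), the CArG box of serum response factor, GCGNGGGCG (an EGR site) and TATAAA. Only the first window listed for each gene was used, and sites outside it or at another start of the gene were not searched. Variants of these strings were not searched either, such as TGACATCA, which lies in the windows of JUN and ATF3. The core TGACG was present in 8 of the 9 windows, all but that of ATF3, and in 24.6% of all 35116 promoter windows of the same length. The full CRE was present in JUND alone (1.85% of all windows), the TRE in FOSL2 alone (7.71%), the CArG box in EGR1 alone (1.29%), the EGR site in EGR1 alone (9.43%), and TATAAA in FOS, FOSB and JUNB (11.5%). The windows of FOS (chr14:75278578-75278877, plus strand), FOSL2 (chr2:28392608-28392907, plus strand), JUN (chr1:58783998-58784297, minus strand) and EGR1 (chr5:138465229-138465528, plus strand) are shown because FOSL2, FOS and JUN had the largest differences in ZR75-1 and EGR1 alone held CArG boxes. Capitals mark TGACG or its reverse complement CGTCA, the TRE of FOSL2 and the CArG boxes of EGR1.
FOS: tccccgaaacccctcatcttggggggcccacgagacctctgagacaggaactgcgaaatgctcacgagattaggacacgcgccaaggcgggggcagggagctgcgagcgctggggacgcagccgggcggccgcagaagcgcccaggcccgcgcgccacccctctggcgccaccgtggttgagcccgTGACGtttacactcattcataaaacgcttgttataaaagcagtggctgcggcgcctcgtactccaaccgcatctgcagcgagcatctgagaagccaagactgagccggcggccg
FOSL2: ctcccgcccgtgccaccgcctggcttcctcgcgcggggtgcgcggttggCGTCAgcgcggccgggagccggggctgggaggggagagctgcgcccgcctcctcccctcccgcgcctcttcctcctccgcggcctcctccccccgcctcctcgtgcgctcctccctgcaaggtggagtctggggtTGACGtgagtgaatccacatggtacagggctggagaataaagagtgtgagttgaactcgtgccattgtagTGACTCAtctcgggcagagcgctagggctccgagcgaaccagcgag
JUN: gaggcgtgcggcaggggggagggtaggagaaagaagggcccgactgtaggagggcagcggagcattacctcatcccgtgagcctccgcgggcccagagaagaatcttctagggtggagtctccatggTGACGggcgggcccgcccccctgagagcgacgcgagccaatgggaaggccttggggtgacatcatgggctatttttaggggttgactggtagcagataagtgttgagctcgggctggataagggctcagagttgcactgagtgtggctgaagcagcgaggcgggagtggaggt
EGR1: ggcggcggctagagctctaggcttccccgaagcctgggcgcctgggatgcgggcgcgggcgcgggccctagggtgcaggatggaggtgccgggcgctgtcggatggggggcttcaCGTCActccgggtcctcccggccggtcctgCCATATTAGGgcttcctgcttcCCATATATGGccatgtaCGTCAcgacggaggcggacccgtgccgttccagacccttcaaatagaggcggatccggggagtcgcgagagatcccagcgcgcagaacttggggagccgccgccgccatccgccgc
A match is a string of letters in a window and says nothing on whether a factor was bound there.

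The sums of FPKM per sample ranged from 599228 to 835069 and were lower with PKC412 in both lines. In MDA-MB-468 they were 765859 and 722642 with DMSO against 599228 to 700688 with PKC412. In ZR75-1 they were 835069 and 752338 with DMSO against 610275 to 746154 with PKC412. The depth in reads is unknown, and Pearson's r of log2(FPKM + 1) between samples of 1 group lay between 0.947 and 0.978. Of 8 basal genes 6 were called higher in MDA-MB-468 and 1, CDH3, lower (9.56 to 11.6 FPKM against 17.9 to 25.2 in ZR75-1), and of 8 luminal genes 7 were called lower. The basal genes, mainly KRT5 and KRT17, summed to 2420 to 2680 FPKM in MDA-MB-468 and to 22.9 to 32.5 in ZR75-1, and the luminal genes to 1160 to 1780 and 11100 to 14500. Of the receptor genes, PGR was listed at 0 in every MDA-MB-468 sample and reached at most 0.549 FPKM in ZR75-1, while ESR1 was at most 0.461 FPKM in the first line and 2.63 to 8.28 in the other. The 12 markers of fibroblasts, endothelial cells and leukocytes had sums of 28.9 to 35.4 FPKM in the basal line and of 8.8 to 19.3 in the luminal one, with COL1A2, COL3A1, CD3E and PTPRC at or near 0 throughout. Nearly all of the sum in MDA-MB-468 was CD14 (23.3 and 20.2 FPKM with DMSO, 11.7, 13.3 and 13.6 with PKC412, adjusted p = 0.0737 in limma) and CD68 (10.5 to 14.7 FPKM). Of the 12, PECAM1 rose in MDA-MB-468 (at most 0.511 FPKM in DMSO, at most 0.89 in PKC412) and COL1A1 in ZR75-1 (at most 2.75 and 11.1), and their part in the results was not tested. The slope of log2 FPKM on GC content was taken after subtracting each gene's mean over its line, so it compares libraries within a line. In MDA-MB-468 this slope moved with treatment: per 10 percentage points it was 0.373 and 0.0574 with DMSO against -0.287, -0.0242 and -0.119 with PKC412. The slopes of the ZR75-1 groups overlapped (0.314 and -0.192 with DMSO, -0.107, 0.342 and -0.356 with PKC412).

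**Figure D1:**
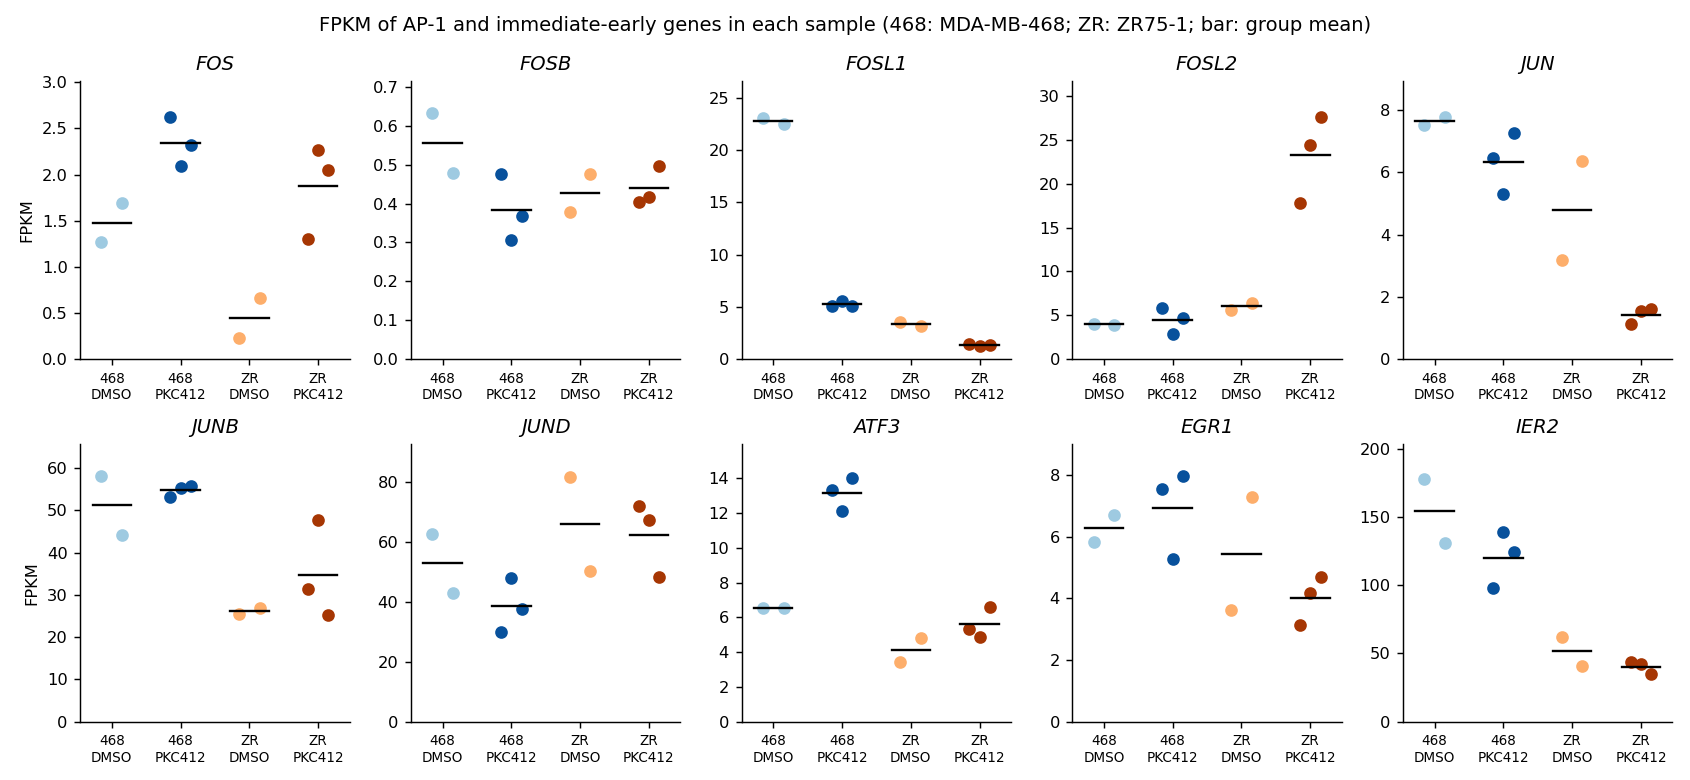
FPKM of the 10 genes in each of the 10 samples, 1 panel per gene with its own linear axis from 0; points are samples and bars are group means (DMSO n = 2, PKC412 n = 3 per line). FOSL1 falls in both lines, from 22.8 to 5.23 FPKM in MDA-MB-468 and from 3.37 to 1.36 in ZR75-1, while the FOSL2 points of PKC412-treated ZR75-1 cells (17.8 to 27.6) stand above all others.

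The first question was which of these genes changed when the basal line was treated with PKC412. FOSL1 fell and no other of the 10 genes passed the test, while ATF3 lay just outside it. FOSL1 was at 23.1 and 22.5 FPKM in the DMSO samples of MDA-MB-468 and at 5.09, 5.52 and 5.09 FPKM in the PKC412 samples. The groups were far apart and the replicates close together, with means of 22.8 ± 0.446 (SD, n = 2) and 5.23 ± 0.248 FPKM (SD, n = 3), which is 4.35-fold lower in PKC412. On the log2(FPKM + 1) scale FOSL1 fell by 1.93 with a standard error of 0.13 (adjusted p = 0.000609, limma with Benjamini-Hochberg adjustment over 16071 genes), the rank 9 of all genes by p. Among all genes tested 0.566% were called lower and 0.691% higher in this comparison, against 1 and 0 of the 10 (1 was higher at an unadjusted p under 0.05, ATF3). In either direction 2635 of the 16071 genes had such an unadjusted p. FOSL1 is GC-rich (60% against a median of 49.9% over the tested genes), and after an adjustment of the values for GC content and length it fell by 1.73 (adjusted p = 0.00028). As whole cultures were sequenced, fewer cells that carry a transcript and less of it per cell cannot be told apart.

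The other 3 genes of the FOS family did not pass in MDA-MB-468. FOS, the founding member, was at 1.27 and 1.69 FPKM in DMSO and at 2.62, 2.09 and 2.32 in PKC412, a log2 difference of 0.43 (SE 0.2, adjusted p = 0.316, limma). FOSL2 was at 3.95 and 3.93 FPKM in DMSO and at 5.84, 2.91 and 4.66 in PKC412, so the treated samples lay on both sides of the controls (adjusted p = 0.829, limma). FOSB stayed under 1 FPKM in every sample of both lines, from 0.307 to 0.634.

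Within the JUN family no gene passed in MDA-MB-468. JUN, the partner with the strongest activation domain, was at 7.53 and 7.79 FPKM in DMSO and at 6.46, 5.3 and 7.27 in PKC412, lower in all 3 treated samples by a log2 difference of -0.25 (SE 0.25, adjusted p = 0.561, limma). JUNB was at 51.1 ± 9.86 FPKM in DMSO (SD, n = 2) and 54.7 ± 1.38 in PKC412 (SD, n = 3), and its groups overlapped. JUND, the family member expressed at a steady level in most cells, was at 52.8 ± 14 and 38.4 ± 8.96 FPKM, again with overlapping groups (adjusted p = 0.398, limma). JUND has the highest GC content of the 10 genes (69.7%). In MDA-MB-468 it was highest in the library with the highest GC slope and lowest in the library with the lowest. In ZR75-1 it was lowest in the library with the lowest slope (48.1 FPKM). The ZR75-1 library with the highest slope had JUND at 67.2 FPKM, below the 81.6 of DMSO replicate 1. The log2 difference of JUND in MDA-MB-468, -0.45, was -0.14 after the adjustment for GC content and length. The part of base composition in it was not tested.

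ATF3 was at 6.56 and 6.52 FPKM in the DMSO samples of MDA-MB-468 and at 13.3, 12.1 and 14 FPKM in the PKC412 samples. Every treated sample was above every control and the means differed 2.01-fold, yet with a log2 difference of 0.91 (SE 0.17) the adjusted p was 0.0514 in limma, over the threshold of 0.05. ATF3 passed in 4 of the 21 alternative settings, with adjusted p between 0.00503 and 0.683 over all of them. EGR1 was at 6.28 ± 0.609 FPKM in DMSO (SD, n = 2) and 6.92 ± 1.44 in PKC412 (SD, n = 3), with overlapping groups. IER2, a nuclear protein gene of the early response, was the most abundant transcript of the 10 in MDA-MB-468. It was at 178 and 131 FPKM in DMSO and 97.6, 139 and 124 in PKC412 (adjusted p = 0.389, limma). In all, 5 of the 10 genes had groups that did not overlap in MDA-MB-468, as had 55.9% of all genes tested.

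In the luminal line the same treatment was followed by 1 fall and 1 rise among the 10 genes, both in the FOS family. FOSL1 was at 3.56 and 3.19 FPKM in the DMSO samples of ZR75-1 and at 1.48, 1.22 and 1.39 in the PKC412 samples. All 3 treated samples were below both controls, the mean was 2.48-fold lower, and on the log2 scale FOSL1 fell by 0.89 with a standard error of 0.13 (adjusted p = 0.0224, limma). FOSL2 was at 5.65 and 6.42 FPKM in DMSO and at 17.8, 24.4 and 27.6 in PKC412. The treated mean of 23.2 ± 5 FPKM (SD, n = 3) was 3.85-fold higher than that of the controls, with a log2 difference of 1.77 (SE 0.26, adjusted p = 0.0229, limma). Among all genes tested in ZR75-1, 0.747% were called higher and 0.199% lower, against 1 and 1 of the 10. The spread in these tests was estimated from both lines together. With ZR75-1 alone FOSL1 had a standard error of 0.22 and an adjusted p of 0.746, and FOSL2 an adjusted p of 0.268 (limma).

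Both calls in ZR75-1 were lost when any of most single libraries was left out. FOSL1 was called without ZR75-1 PKC412 replicate 2 or 3 and lost its call without any 1 of the other 8 libraries, with log2 differences of -0.95 to -0.83 and adjusted p of 0.0299 to 0.166 in limma. FOSL2 was called without MDA-MB-468 PKC412 replicate 1 or 2 or ZR75-1 PKC412 replicate 1 and lost its call without any 1 of the other 7, with log2 differences of 1.64 to 1.94 and adjusted p of 0.0206 to 0.185. The fall of FOSL1 in MDA-MB-468 was called without each of the 10 libraries in turn (log2 difference -1.97 to -1.91).

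FOS and JUN moved apart in ZR75-1 but neither passed the test. FOS was at 0.224 and 0.659 FPKM in DMSO and at 1.3, 2.27 and 2.05 in PKC412, above both controls in all 3 samples and 4.25-fold higher in the mean (log2 difference 1, SE 0.2, adjusted p = 0.0896, limma). JUN was at 3.19 and 6.36 FPKM in DMSO and at 1.14, 1.53 and 1.61 in PKC412, below both controls in all 3 samples and 3.34-fold lower in the mean (log2 difference -1.2, SE 0.25, adjusted p = 0.0965, limma). The 2 JUN controls differed from each other more than the treated samples did, and the difference was -1.61 (adjusted p = 0.0454) without ZR75-1 DMSO replicate 1 but -0.79 (adjusted p = 0.138) without ZR75-1 DMSO replicate 2. JUN also passed after median-ratio rescaling within each line, at -1.28 (adjusted p = 0.031). After the adjustment for GC content and length both passed, FOS at 0.95 (adjusted p = 0.0306) and JUN at -1.35 (adjusted p = 0.00986).

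The remaining 6 genes had smaller differences in ZR75-1. ATF3 was at 3.46 and 4.83 FPKM in DMSO and at 5.31, 4.85 and 6.61 in PKC412, a log2 difference of 0.36 (SE 0.17, adjusted p = 0.476, limma). Its groups did not overlap, but the lowest treated sample lay close to the higher control. JUNB was at 26.2 ± 0.979 FPKM in DMSO (SD, n = 2) and 34.7 ± 11.6 in PKC412 (SD, n = 3), with overlapping groups and 1 treated sample at 47.6. JUND, EGR1, IER2 and FOSB had overlapping groups and adjusted p of 0.657 to 0.997. In all, 5 of the 10 genes had groups that did not overlap in ZR75-1, as had 21.7% of all genes tested.

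**Figure D2:**
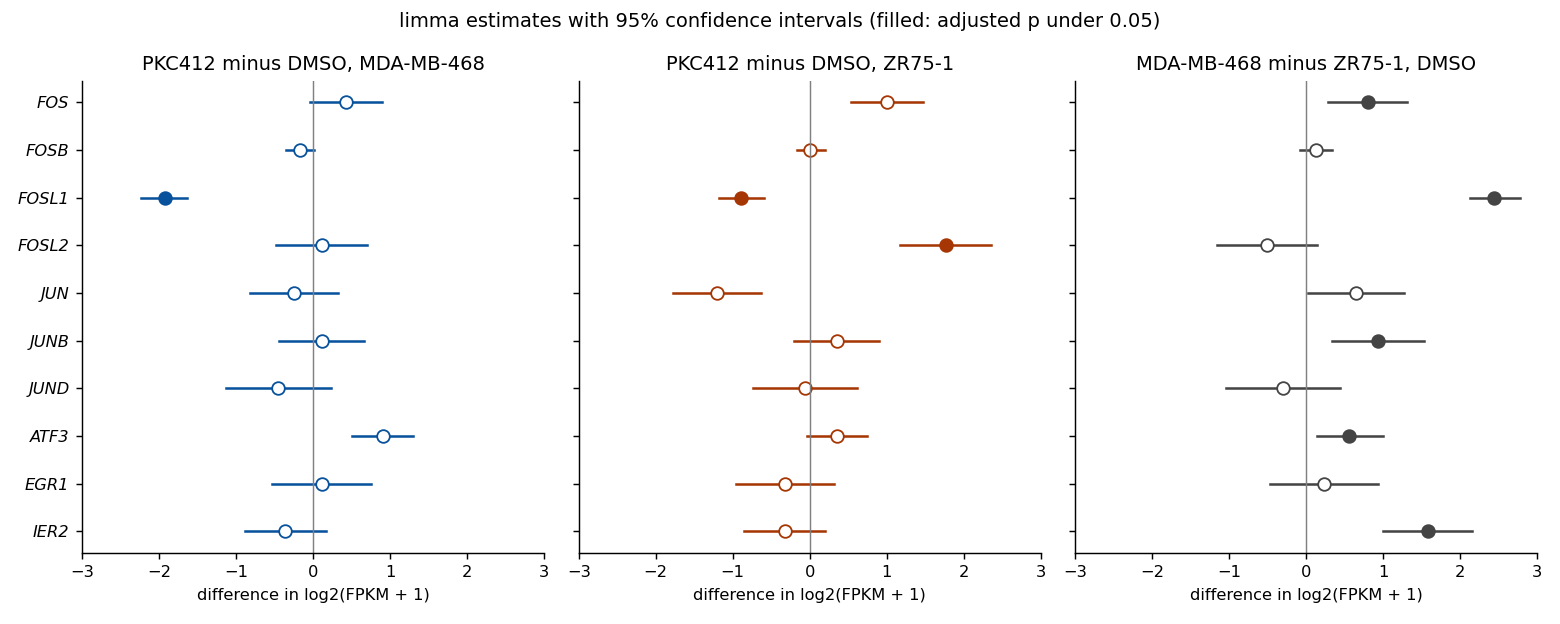
Differences in log2(FPKM + 1) of the 10 genes from limma, with 95% confidence intervals as lines, for PKC412 minus DMSO in each line and for MDA-MB-468 minus ZR75-1 in DMSO; filled points have an adjusted p under 0.05. FOSL1 is the filled point on the left in both lines (-1.93 and -0.89), FOSL2 is filled in ZR75-1 alone (1.77), and 5 genes are filled on the right in the comparison of the lines.

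Whether a gene responded differently in the lines was asked of the difference between the responses itself, MDA-MB-468 minus ZR75-1. None of the 10 genes passed in limma (0.268% of all genes did). For FOSL1 this difference was -1.04 (95% confidence interval -1.46 to -0.63, adjusted p = 0.089, limma) and for FOSL2 it was -1.66 (-2.5 to -0.81, adjusted p = 0.188). For JUN it was 0.95 (0.14 to 1.76, adjusted p = 0.59), and these 3 genes had an unadjusted p under 0.05, as had 1133 of all 16071 genes. FOSL1 passed in 1 of 20 alternatives, with no trend in the prior variance (adjusted p = 0.0142), and FOSL2 in 1, with the adjustment for GC content and length (adjusted p = 0.0299). The rise of FOSL2 in ZR75-1 and its absence from the calls in MDA-MB-468 were therefore not shown to differ after adjustment over all genes.

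The make-up of the FOS family followed from these values. FOSL1 supplied 79.2% ± 0.849 (SD, n = 2) of the summed FPKM of FOS, FOSB, FOSL1 and FOSL2 in DMSO-treated MDA-MB-468 cells and 42.7% ± 7.52 (SD, n = 3) in PKC412, while the sum went from 28.8 to 12.4 FPKM. In ZR75-1 FOSL2 was already the main FOS family transcript, with 58.7% ± 1.56 in DMSO and 86.2% ± 1.35 in PKC412, and the sum went from 10.3 to 26.9 FPKM. FOSL1 went from 33% ± 4.67 to 5.26% ± 1.55 of the family in that line. FOS itself stayed a minor part, at 5.16% and 18.9% in MDA-MB-468 and at 4.2% and 6.92% in ZR75-1. The JUN family sum was much steadier, at 111 ± 23.4 and 99.5 ± 9.34 FPKM in MDA-MB-468 and 96.7 ± 18.8 and 98.3 ± 21.1 in ZR75-1, and nearly all of it was JUNB and JUND. JUN supplied at most 8.21% of it in any sample, with means of 7.04% and 6.44% in MDA-MB-468 and 5.26% and 1.52% in ZR75-1. These shares were given no test of their own.

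**Figure D3:**
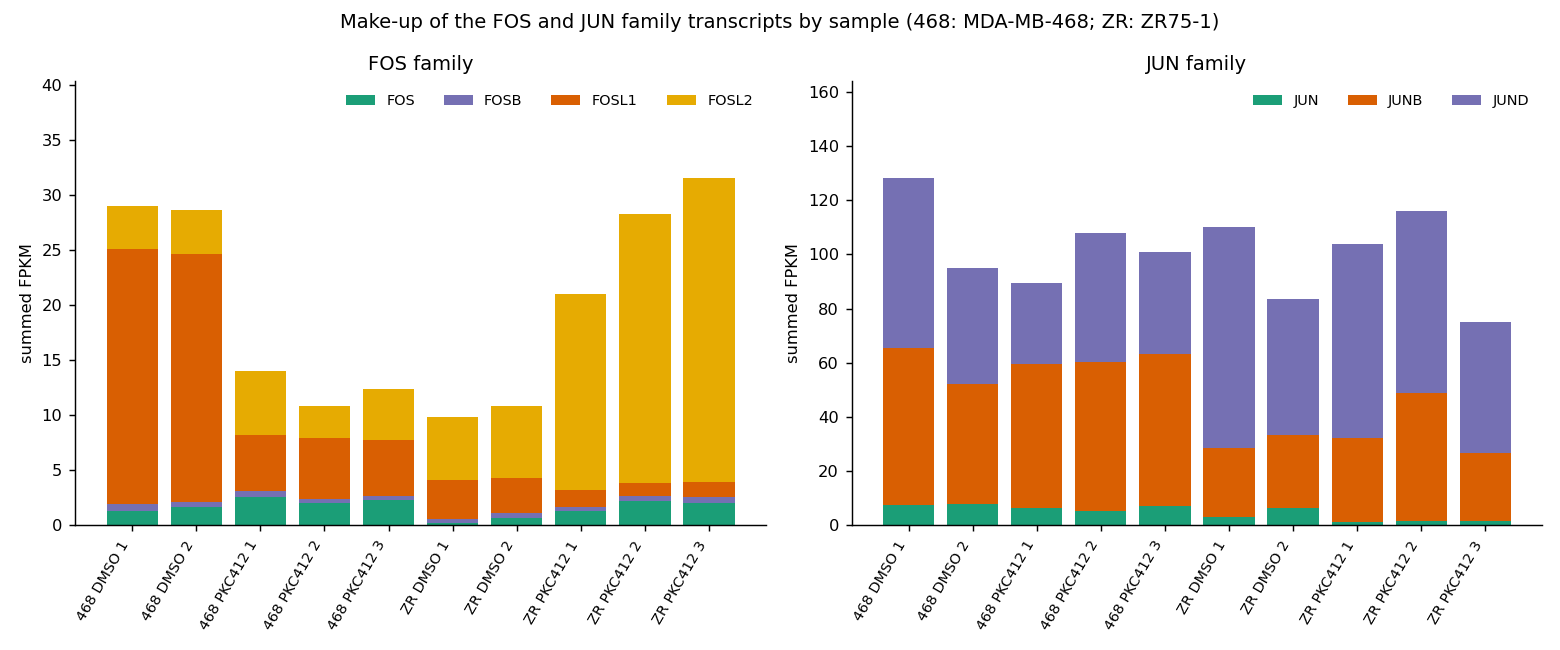
Summed FPKM of the FOS family (left) and the JUN family (right) in each of the 10 samples, on linear axes from 0, with each gene as a coloured part of the bar. FOSL1 makes up most of the FOS family bar in MDA-MB-468 DMSO samples (78.6% and 79.8%) and FOSL2 most of it in ZR75-1 PKC412 samples (84.8% to 87.5%), while the JUN family bars consist mainly of JUNB and JUND.

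In DMSO the called differences between the 2 lines were all in the same direction (limma). Of the 10 genes 5 were called higher in MDA-MB-468 and 0 higher in ZR75-1, where 26.5% and 15.9% of all genes were. At an unadjusted p under 0.05 also 0 of the 10 were higher in ZR75-1. In either direction 7931 of all 16071 genes had such an unadjusted p. FOSL1 differed most: its mean was 6.75-fold higher in MDA-MB-468, a log2 difference of 2.44 (SE 0.14, adjusted p = 4.49e-06, limma). IER2 was at 178 and 131 FPKM in MDA-MB-468 and at 61.8 and 41.1 in ZR75-1, 3-fold higher in the mean (log2 difference 1.58, SE 0.25, adjusted p = 0.00119). FOS was 3.36-fold higher (adjusted p = 0.0207) at levels under 2 FPKM, JUNB 1.95-fold (adjusted p = 0.0209) and ATF3 1.58-fold (adjusted p = 0.0395). FOSL1 and IER2 were called without each of the 10 libraries in turn. FOS lost its call without MDA-MB-468 DMSO replicate 2 (0.67) or ZR75-1 DMSO replicate 1 (0.58), JUNB without MDA-MB-468 DMSO replicate 1 (0.73), ZR75-1 DMSO replicate 1 (0.89) or ZR75-1 DMSO replicate 2 (0.97), and ATF3 without any 1 of 7 libraries (0.37 to 0.57), all but ZR75-1 DMSO replicate 2 and ZR75-1 PKC412 replicates 2 and 3. FOSL2 was 1.53-fold higher in ZR75-1 (log2 difference -0.51, adjusted p = 0.192) and JUN 1.6-fold higher in MDA-MB-468 (0.64, adjusted p = 0.0944), while JUND and EGR1 overlapped between the lines. Without ZR75-1 DMSO replicate 2 JUN was called, at 1.05 (adjusted p = 0.0113), and without ZR75-1 DMSO replicate 1 it was at 0.23 (adjusted p = 0.491).

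In the PKC412 samples the lines were set side by side without a test. FOSL1 was 3.84-fold higher in MDA-MB-468, JUN 4.44-fold, IER2 2.98-fold, ATF3 2.35-fold, EGR1 1.73-fold and JUNB 1.58-fold, and in ZR75-1 FOSL2 was 5.2-fold and JUND 1.62-fold higher. The groups of these 8 genes did not overlap, as was so for 64.4% of all genes tested, while those of FOS and FOSB did. Across the 4 groups FOSL1 therefore ran in the order MDA-MB-468 DMSO, MDA-MB-468 PKC412, ZR75-1 DMSO, ZR75-1 PKC412, with no overlap between neighbours. FOSL2 was highest in PKC412-treated ZR75-1 cells, and its next groups, ZR75-1 DMSO and MDA-MB-468 PKC412, overlapped, as did MDA-MB-468 PKC412 and DMSO. For ATF3 the order was MDA-MB-468 PKC412, MDA-MB-468 DMSO, ZR75-1 PKC412, ZR75-1 DMSO, and the middle pair overlapped.

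Other genes of the same response were read from 4 further lists. Of 41 other immediate-early genes 40 were tested, and in MDA-MB-468 4 rose and 4 fell, where 0.691% and 0.566% of all genes did, with a median log2 difference of 0.08 against 0.11 over all genes. The largest falls were those of CTGF (8.35 ± 1.34 to 0.722 ± 0.142 FPKM, log2 difference -2.44, adjusted p = 8.2e-05, limma) and CYR61 (30.1 ± 3.07 to 5.46 ± 0.426 FPKM, -2.27, adjusted p = 0.00358), which encode secreted matricellular proteins. The rises included TNFAIP3, an inhibitor of NF-kappaB signalling (0.224 ± 0.0864 to 4.6 ± 1.68 FPKM, adjusted p = 0.0287), SGK1, a kinase (1.44 ± 0.861 to 7.69 ± 2.15 FPKM, adjusted p = 0.0182), and NR4A1, an orphan nuclear receptor (3.17 ± 0.195 to 11.6 ± 0.757 FPKM, adjusted p = 0.00226). CTGF, CYR61 and NR4A1 were called without each library in turn. TNFAIP3 was called only without MDA-MB-468 PKC412 replicate 2 or ZR75-1 PKC412 replicate 2 or 3 (1.93 to 2.36 over the 10), and SGK1 lost its call without MDA-MB-468 DMSO replicate 1 (1.48), MDA-MB-468 PKC412 replicate 1 (1.67) or 3 (1.84) or ZR75-1 PKC412 replicate 1 (1.85).

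In ZR75-1, 4 of the 40 immediate-early genes rose and 1 fell, where 0.747% and 0.199% of all genes did, with a median log2 difference of 0.3 against 0.07 over all genes. NR4A1 rose from 8.42 ± 1.6 to 55.2 ± 3.37 FPKM (log2 difference 2.59, adjusted p = 0.000116, limma) and SIK1, a salt-inducible kinase gene, from 0.473 ± 0.105 to 5.23 ± 1 FPKM (2.07, adjusted p = 0.00478), and both were called without each library in turn. DUSP1, a phosphatase of MAP kinases, rose from 2.62 ± 1.65 to 17.7 ± 4.94 FPKM (2.42, adjusted p = 0.0199), NR4A3 from 0.0506 to 0.752 FPKM (0.73, adjusted p = 0.0229), and DUSP5, a phosphatase of ERK, fell from 17.3 ± 1.67 to 8.38 ± 0.617 FPKM (log2 difference -0.96, adjusted p = 0.017). In this line NR4A3 passed the filter of 0.1 FPKM through the treated samples alone. It was under 1 FPKM in both groups and was not tested with a filter at 1 FPKM. DUSP1 lost its call without any 1 of 6 libraries (all but MDA-MB-468 PKC412 replicates 1 and 2, ZR75-1 DMSO replicate 2 and ZR75-1 PKC412 replicate 2), DUSP5 without any DMSO library or ZR75-1 PKC412 replicate 1, and NR4A3 without any but ZR75-1 PKC412 replicates 2 and 3, with adjusted p of at most 0.122, 0.069 and 0.176. CTGF was the only gene of this list that passed the test of the difference between the responses of the lines (adjusted p = 0.00195).

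**Figure D4:**
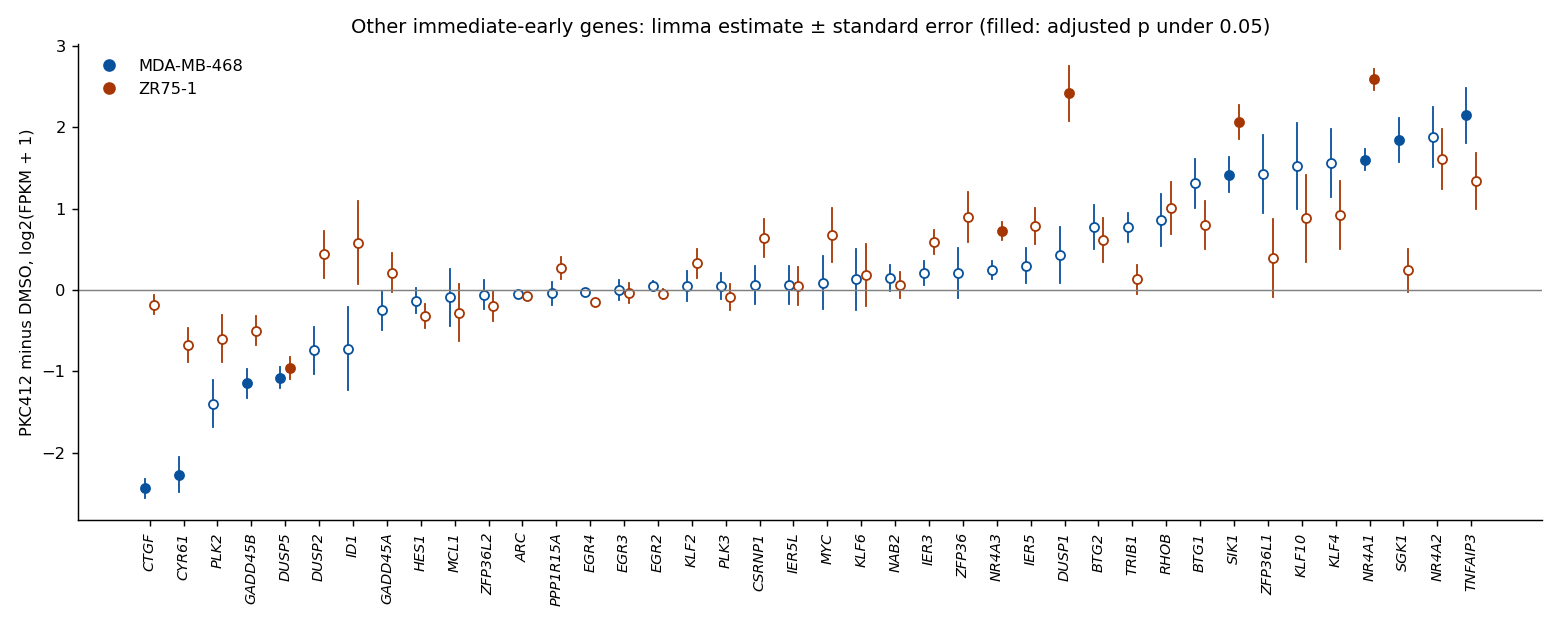
Differences in log2(FPKM + 1), PKC412 minus DMSO, of the 40 other immediate-early genes tested, from limma with standard errors as lines, ordered by the value in MDA-MB-468; filled points have an adjusted p under 0.05. In MDA-MB-468 4 filled points lie above 0 and 4 below it, and in ZR75-1 4 lie above and 1 below.

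Of the 16071 genes tested, 2635 in MDA-MB-468 and 1794 in ZR75-1 had an unadjusted p under 0.05 (limma). None of the 22 other leucine zipper genes that can pair with AP-1 proteins (such as ATF, CREB, MAF, BATF and C/EBP genes) passed in either line, and 6 had such an unadjusted p in each (limma). CREM, a CRE-binding member chosen here after its values were seen, had the lowest adjusted p of them, 0.0538 in ZR75-1, at 3.42 FPKM in DMSO and 14.2 in PKC412. None of 30 tested kinases and factors upstream of FOS, JUN and EGR1 passed in either line (6 and 3 with an unadjusted p under 0.05, limma), with median log2 differences of 0.4 and 0.11 against 0.11 and 0.07 over all genes. Of 28 tested genes reported as AP-1 targets, 1 fell in MDA-MB-468 (0.566% of all genes did), and 1 rose and 1 fell in ZR75-1 (0.747% and 0.199% of all genes). The one in MDA-MB-468 was IVL (involucrin, a protein of the cornified envelope), which went from 10.3 ± 0.0622 to 4.06 ± 0.267 FPKM (log2 difference -1.16, adjusted p = 0.00558, limma) and was called without each library in turn. In ZR75-1 the cytokine genes LIF (6.49 ± 0.906 to 2.47 ± 0.486 FPKM, adjusted p = 0.0462) and IL6 (0.018 to 0.826 FPKM, adjusted p = 0.0065) were the ones called. In this line IL6 passed the filter of 0.1 FPKM through the treated samples alone. It was under 1 FPKM in both groups and was not tested with a filter at 1 FPKM. LIF lost its call without any 1 of the 10 libraries (adjusted p of 0.0514 to 0.171) and IL6 without ZR75-1 DMSO replicate 1 (0.86, adjusted p = 0.0512). Between the lines in DMSO 21 of the 28 targets were called, 16 higher in MDA-MB-468 and 5 lower, at a median log2 difference of 1.26 against 0.11 over all genes. In that comparison 12 of the other immediate-early genes were higher in MDA-MB-468 and 10 lower, 5 of the leucine zipper genes higher and 5 lower, and 8 of the upstream genes higher and 1 lower, against 26.5% and 15.9% of all genes.

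Genes with profiles most like each of the 10 except FOSB, which stayed under 1 FPKM, were sought by Pearson's r of log2(FPKM + 1), centred on each line, over the 10 samples among 12334 genes above 1 FPKM in at least 1 group. The libraries differ in treatment, base composition and possibly depth, none of which was removed, so these values can reflect any of them. IVL was most like FOSL1 (r = 0.997), ahead of IGSF9 (0.987) and C10orf10 (0.982). IVL is the target gene called in MDA-MB-468, and its r and its call draw on the same samples, so neither adds to the other. RPS6KA2, a ribosomal S6 kinase gene, was most like FOSL2 (0.977), CDK18 most like FOS (0.99), INHBB most like JUN (0.95) and CD55 and RGS16 most like ATF3 (0.978 each). SCARF2 was most like JUNB (0.96), DUS3L most like JUND (0.975), TTC9 most like EGR1 (0.953) and HDGFRP2 most like IER2 (0.986). Among these 9 genes themselves the pairs with the largest absolute r were FOSL1 and ATF3 (-0.94), JUND and IER2 (0.92) and FOS and FOSL2 (0.9). JUND and IER2 are GC-rich, as is JUNB, which had an r of 0.24 with JUND and of -0.01 with IER2. The part of base composition in these values was not tested.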

How the data were processed

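RNA was extracted and libraries were made with a TruSeq kit and sequenced on a HiSeq2000. The authors deposited FPKM per gene symbol, 1 file per sample, from an in-house pipeline. Their processing notes name CASAVA 1.82, TopHat2 and hg19, and the annotation and the step that gave FPKM are not given in the sources used here. Treatment is described as done in triplicate, and 2 samples with DMSO and 3 with PKC412 per line were analysed here. The dose is that of the labels and methods, and some figure legends of the study name another. The labels gave line, agent and replicate, and whether replicates came from separate passages or days is not stated, so p-values measure only the spread between these samples, which may be technical.

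Differences were tested with limma 3.58.1 (R 4.3.3) on log2(FPKM + 1), which understates the fold of low genes, with 1 mean per group, eBayes with trend, a filter keeping genes whose mean in any group exceeded 0.1 FPKM, 6 residual degrees of freedom and Benjamini-Hochberg adjustment at 0.05. An exact permutation test of 2 against 3 samples cannot give p under 0.1 and was not used. GC content and length came from GENCODE by symbol (88.2% of symbols matched). Figures and motif searches used Python 3.11.15 and matplotlib 3.10.9. The genes and lists were chosen with earlier results of these data known. Named were the 10 genes, at most 5 called genes per further list and line by size, and the 3 most alike genes of each (here mostly the first). The alternatives were other pseudocounts, filters and scalings, a replicate block, adjustment for GC content and length, each line alone, no trend, and each library left out.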

Additional observations from a re-analysis of the deposited data

How the results depend on the processing

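The fall of FOSL1 in MDA-MB-468 passed in all 19 alternatives without a replicate block, and FOSL1 and IER2 between the untreated lines in all 18. FOSL1 and FOSL2 in ZR75-1 passed in 9 and 11 of those 19. The cause of each lost or gained call was not tested. The count of the 10 genes called in MDA-MB-468 (1) was 2 with no filter, with median-ratio rescaling, with adjustment for GC content and length, and without trend, the second gene being ATF3. The count in ZR75-1 (2) was 1 with equal FPKM sums, where FOSL1 lost its call at -0.74 (adjusted p = 0.113, limma). In the same line it was 3 with median-ratio rescaling (JUN added), 4 with the GC adjustment and 0 with each line alone, and 0 to 1 with 1 library left out. The count for the difference of the responses (0) was 1 with the GC adjustment and 1 without trend, and that between the untreated lines (5) was 6 with median-ratio rescaling and with the GC adjustment (JUN added), 4 with equal FPKM sums (ATF3 lost) and 2 to 5 with 1 library left out. Over all genes, calls in MDA-MB-468 (111 higher, 91 lower) were 71 and 36 with equal FPKM sums, where the median log2 difference went from 0.109 to 0.226, and calls in ZR75-1 (120 and 32) were 115 and 12 there and 279 and 173 with the GC adjustment.

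The deviations of same-numbered DMSO and PKC412 samples from their group means had r of -0.19 and -0.13 in MDA-MB-468 and -0.02 and -0.4 in ZR75-1. With 2 DMSO samples per line their deviations mirror each other, and differences in GC slope were not removed, so these values cannot exclude pairing. The labels do not say that equal numbers are pairs, and the main test did not take them as pairs. With the number as a replicate block, which left 2 residual degrees of freedom, 0 of the 10 genes were called in either line, with the GC adjustment or without it, and no gene of the further lists was. The block could not be fitted between the lines.

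Values that changed sign were all uncalled. With median-ratio rescaling in MDA-MB-468 FOSL2 was -0.02, JUNB -0.04 and EGR1 -0.03, and FOSB in ZR75-1 was -0.03. With the GC adjustment FOSL2 was -0.11 in MDA-MB-468, FOSB -0.05 and JUND 0.2 in ZR75-1, and the difference of the responses of IER2 0.13. With the block FOSB was -0.02 and JUND 0.12 in ZR75-1, and with block and GC adjustment FOSL2 was -0.14 and EGR1 -0.06 in MDA-MB-468, FOSB -0.06 and JUND 0.21 in ZR75-1 and IER2 0.07 for the difference. With equal FPKM sums JUND was 0.15 in ZR75-1. With 1 library left out, FOSL2 ranged from -0.07 to 0.33 and JUNB from -0.09 to 0.3 in MDA-MB-468, FOSB from -0.04 to 0.06, JUND from -0.4 to 0.29 and EGR1 from -0.74 to 0.1 in ZR75-1, IER2 from -0.32 to 0.26 and JUNB from -0.44 to 0.01 for the difference, and JUND from -0.64 to 0.05 and EGR1 from -0.19 to 0.65 between the lines.

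The further lists were recomputed after the first results were seen. In MDA-MB-468 the other immediate-early genes called (8) were 5 with equal FPKM sums, 13 with the GC adjustment, 5 with the line alone and 3 to 9 with 1 library left out. The target genes (1) were 2 with a pseudocount of 0.1, 5 with the GC adjustment, 2 with the line alone and 1 to 3 with 1 library left out. The leucine zipper genes (0) were 1 with equal sums and 3 with the GC adjustment, and the upstream genes (0) were 1 with the GC adjustment and 0 to 1 with 1 library left out. In ZR75-1 the immediate-early genes (5) were 11 with the GC adjustment, 1 with the line alone and 2 to 6 with 1 library left out. The targets (2) were 1 with no filter, 1 with equal sums, 5 with the GC adjustment, 0 with the line alone, 4 without trend and 0 to 1 with 1 library left out. The leucine zipper genes (0) were 1 with a filter at 1 FPKM, with median-ratio rescaling and with the GC adjustment, and 0 to 1 with 1 library left out. Between the lines the upstream genes (9) were 17 with the GC adjustment.

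The depth in reads is unknown, so precision comes only from the spread of 2 or 3 samples, and levels under 1 FPKM, such as those of FOSB, are the least certain.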
